A study of Mus musculus with 9 samples.

Results

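S100 genes encode small proteins that bind calcium through paired EF-hand loops and act mostly as dimers, and 10 of them were followed in mouse gastrocnemius, the large calf muscle. The 10 genes, S100a1, S100a4, S100a6, S100a8, S100a9, S100a10, S100a11, S100a13, S100a16 and S100b, were picked by name, and all 10 were found among the 35275 genes of the deposited table. They were picked with the ammonium acetate and PBS values of these same libraries known, so their values in the 2 groups are given as a description and without a test. The mice were wild type C57BL/6J animals aged 8 to 10 weeks with an implanted osmotic minipump, and the muscle was taken 4 weeks later. In 4 libraries (PBS 4, 5, 7 and 8) the pump held phosphate-buffered saline (PBS). In the other 5 (ammonium acetate 4 to 8) it delivered ammonium acetate, a source of ammonia, at 2.5 mmol/kg daily. Whether every library came from its own animal is not stated in the labels, nor is the sex of the mice, and the spread given is that between these libraries.

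The members have different homes in this tissue. S100a8 and S100a9 are abundant in neutrophils, where they pair into calprotectin, a protein that sequesters metal ions and signals to innate immune receptors. S100a1 is the S100 protein of striated muscle fibres and is known to act on the calcium release channel and the calcium pump of the sarcoplasmic reticulum. S100a4, S100a6, S100a10 and S100a11 are prominent in fibroblasts and other cells between the fibres, and S100a13 and S100a16 are found in many cell types. S100b is known best from glia, Schwann cells included, and from adipocytes.

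In the deposited coordinates (mm10), 9 of the 10 genes lie on chromosome 3 between positions 90511034 and 93564643, and S100b lies on chromosome 10 from 76253853 to 76261159. S100a8 (90669071 to 90670034, plus strand) and S100a9 (90692632 to 90695721, minus strand) are neighbours on opposite strands, 22597 bases apart. S100a1 (90511034 to 90514392, minus strand) and S100a13 (90514435 to 90524581, plus strand) stand head to head with 42 bases between them. RefSeq on GRCm38.p6, the same build, gave a promoter window of 300 bases (250 before to 50 after the annotated start) for 9 of the 10 genes. The windows of S100a8 and S100a9 are shown because these genes had the highest fold changes of the 10, and the S100a1 window because it runs into S100a13. The S100a8 window is chr3:90668821-90669120 (plus strand), that of S100a9 chr3:90695672-90695971 (minus strand) and that of S100a1 chr3:90514281-90514580 (minus strand). In the first 2 sequences, capitals mark matches on either strand to TATAAA or to a core of the C/EBP site. In the S100a1 sequence, capitals mark the 104 bases between the RefSeq start sites of S100a1 and S100a13.
S100a8: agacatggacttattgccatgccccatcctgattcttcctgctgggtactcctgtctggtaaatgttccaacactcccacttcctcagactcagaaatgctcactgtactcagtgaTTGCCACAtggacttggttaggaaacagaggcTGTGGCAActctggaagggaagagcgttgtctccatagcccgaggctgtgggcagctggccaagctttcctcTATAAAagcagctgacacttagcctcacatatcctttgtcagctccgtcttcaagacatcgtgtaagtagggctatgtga
S100a9: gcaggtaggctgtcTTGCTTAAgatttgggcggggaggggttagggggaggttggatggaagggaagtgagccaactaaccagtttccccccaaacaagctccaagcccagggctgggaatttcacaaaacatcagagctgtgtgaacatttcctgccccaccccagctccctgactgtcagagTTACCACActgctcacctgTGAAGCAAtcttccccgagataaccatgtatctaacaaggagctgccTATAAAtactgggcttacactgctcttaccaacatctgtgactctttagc
S100a1: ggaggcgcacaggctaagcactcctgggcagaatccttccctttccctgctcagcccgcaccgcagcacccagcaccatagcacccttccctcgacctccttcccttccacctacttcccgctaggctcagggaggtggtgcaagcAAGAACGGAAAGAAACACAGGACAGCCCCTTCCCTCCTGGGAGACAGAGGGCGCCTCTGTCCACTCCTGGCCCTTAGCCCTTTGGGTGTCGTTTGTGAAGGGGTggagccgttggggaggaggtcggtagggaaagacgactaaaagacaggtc

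C/EBP proteins are transcription factors of myeloid cells, and their core was searched as TTNNGCAA, TTNNGTAA, TGNNGCAA or TGNNGTAA. The S100a8 window held 2 matches, which did not overlap its TATAAA, and the S100a9 window held 3. The windows of S100a1 (not marked in its sequence), S100a13 and S100a4 held 1 each, and those of S100a1 and S100a13 were the same bases read on opposite strands. At least 1 match occurred in 34.1% of 32817 RefSeq promoter windows of this length, so the letters are common. TATAAA stood 30 to 25 bases before the S100a8 start and on bases 1 to 6 of the annotated S100a9 start, and 13.6% of all windows held it on either strand. S100a4 also had it, 31 to 26 bases before its start. The S100a1 window held no TATAAA. It had 204 of its 300 bases in common with the window of S100a13. The core motif of MEF2, a transcription factor of muscle, was in none of the member windows on either strand and in 3.69% of all.

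Expression was given as FPKM, fragments counted, scaled to gene length and library total, so levels can be compared between genes. The libraries held 24930547 to 41780251 reads, recovered from the FPKM. The order of the members by level ran from the muscle gene S100a1 to the neutrophil pair. S100a1 averaged 133 ± 24.3 FPKM (SD, n = 9) and ranked 382 among the 11337 genes with a mean of at least 0.5 FPKM. S100a16 followed at 42.5 ± 6.90, S100a6 at 38.8 ± 7.96, S100a10 at 26.8 ± 5.40 and S100a11 at 25.5 ± 4.29 FPKM. S100a13 averaged 11 ± 1.21 and S100a4 9.13 ± 3.12. The lowest levels were those of S100a9 (1.62 ± 1.35), S100b (1.51 ± 0.778) and S100a8 (0.927 ± 0.700). S100a1 was above S100a16 in 9 of 9 libraries, S100a6 above S100a10 in 9, S100a11 above S100a13 in 9 and S100a4 above S100a9 in 9. The neighbours S100a16 and S100a6 (6 of 9 libraries), S100a10 and S100a11 (5 of 9), S100a13 and S100a4 (7 of 9), S100a9 and S100b (6 of 9) and S100b and S100a8 (7 of 9) changed places and were not separated by their spread. S100a1 made up 40.9% to 51.4% of the summed FPKM of the 10 genes.

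**Figure D1:**
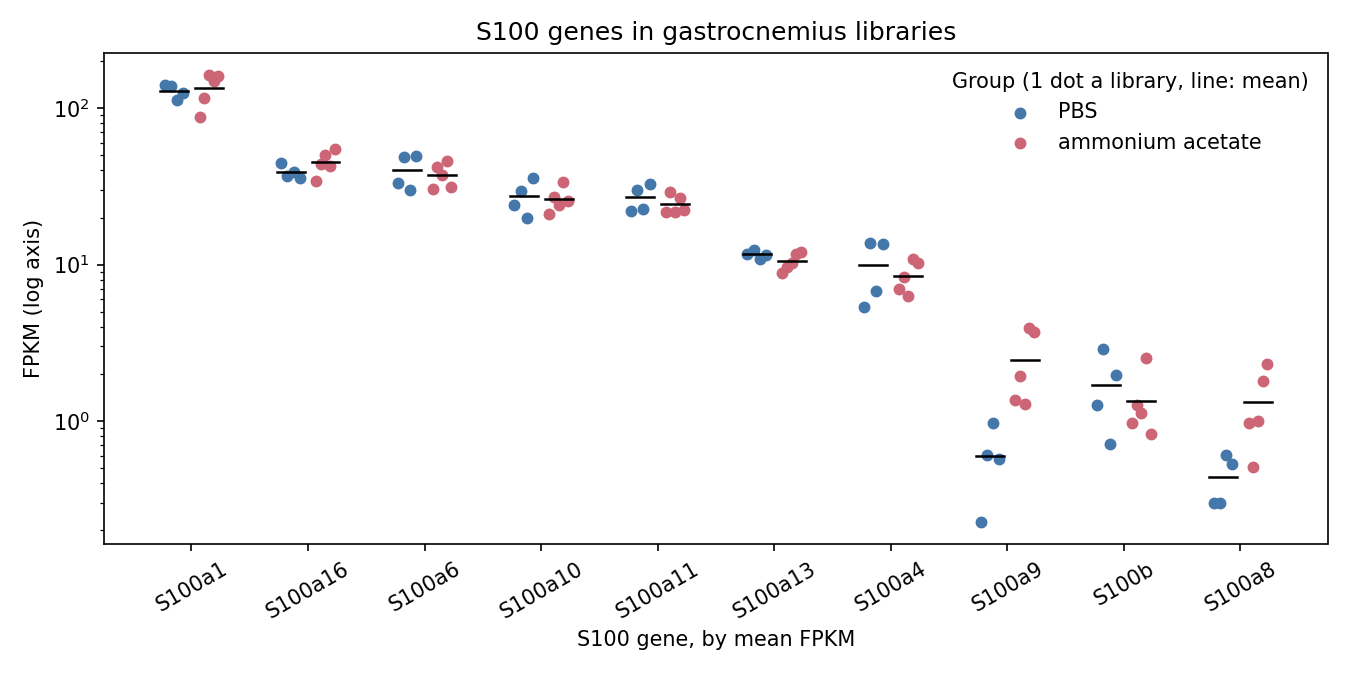
FPKM of the 10 S100 genes on a log axis, 1 dot for each of the 4 PBS (blue) and 5 ammonium acetate (red) libraries and a line at each group's mean, ordered by the mean over all 9 libraries. S100a1 lies highest at 88.1 to 162 FPKM, and the groups are apart without overlap in S100a9 alone.

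S100a9, the larger subunit of calprotectin, had the widest gap between the groups. Its FPKM was 0.227, 0.606, 0.968 and 0.575 in PBS 4, 5, 7 and 8. It was 1.36, 1.93, 1.28, 3.93 and 3.72 in ammonium acetate 4, 5, 6, 7 and 8. Every ammonium acetate library lay above every PBS library, and ammonium acetate 7 and 8 stood well above the other 3. The group means were 0.594 ± 0.303 (SD, n = 4) and 2.44 ± 1.29 (SD, n = 5), a ratio of 4.11, and the log2 fold change was 1.36 (standard error 0.31). That fold change is on log2(FPKM + 0.5), a scale that understates the change of low genes. On the recovered reads by limma's voom it was 1.99.

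The read support of S100a9 was low. PBS libraries held 4, 8, 21 and 10 reads and ammonium acetate libraries 26, 25, 17, 69 and 68, in the order above. The exact 95% Poisson interval, which covers counting error only, ran from 13 to 32.1 reads for PBS 7 and from 9.90 to 27.2 for ammonium acetate 6, so the nearest libraries of the 2 groups were not separated by counting error.

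S100a8, the other calprotectin subunit, showed the same order of group means with less support. Its FPKM was 0.301, 0.301, 0.611 and 0.533 in PBS 4, 5, 7 and 8, on 4, 3, 10 and 7 reads. In ammonium acetate 4 to 8 it was 0.972, 0.512, 0.994, 1.81 and 2.32, on 14, 5, 10, 24 and 32 reads. The groups overlapped, since ammonium acetate 5 lay below PBS 7 and PBS 8. The means were 0.436 ± 0.160 and 1.32 ± 0.727 FPKM, a ratio of 3.03, with a log2 fold change of 0.88 (standard error 0.27) and of 1.42 on the recovered reads. S100a8 passed the expression filter only through the ammonium acetate group, since its PBS mean was under 0.5 FPKM.

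**Figure D2:**
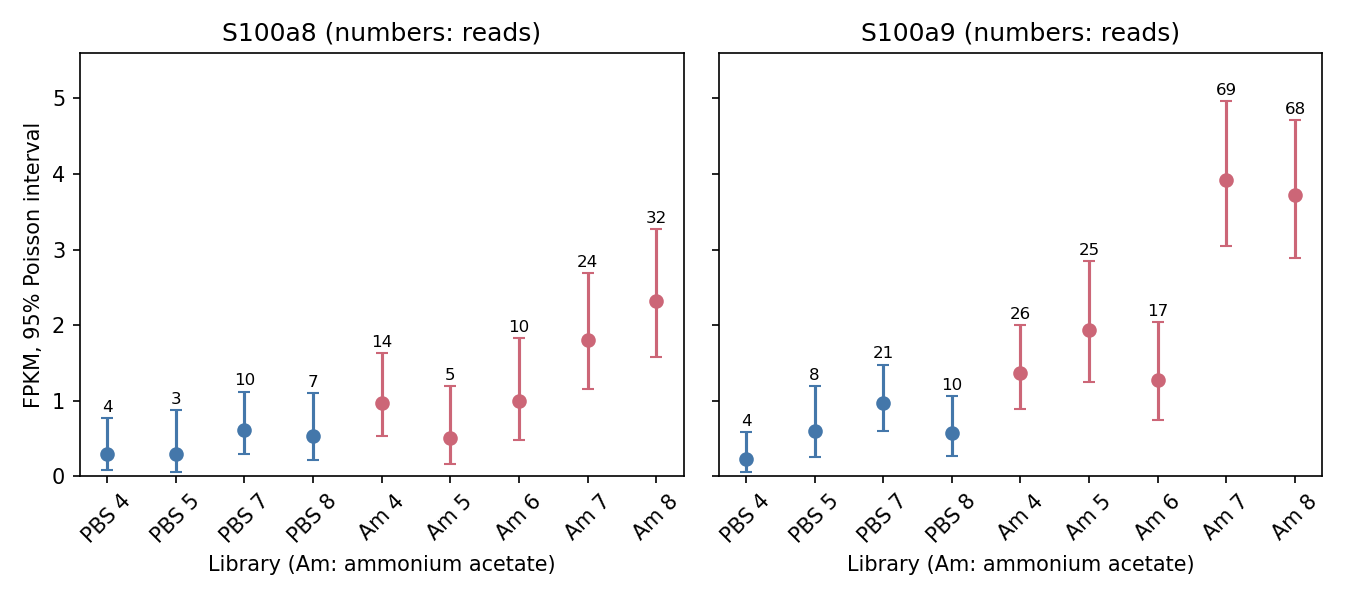
FPKM of S100a8 (left) and S100a9 (right) in each library, with the exact 95% Poisson interval of the reads and the number of reads above it (blue PBS, red ammonium acetate, written Am). Ammonium acetate 7 and 8 are highest for both genes, at 24 and 32 reads of S100a8 and 69 and 68 reads of S100a9.

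Over both genes the recovered reads amounted to 0.236 to 0.742 RPM (reads scaled to the library total) in PBS and 1.05 to 2.84 RPM in ammonium acetate. The counting intervals of the proportion of the 2 genes overlapped between the groups. Per length, S100a8 stood at 0.739 of S100a9 in the summed PBS reads (95% interval 0.429 to 1.25, from an exact binomial interval on 67 reads) and at 0.549 in the summed ammonium acetate reads (0.421 to 0.71, 290 reads). Single libraries ran from 0.265 in ammonium acetate 5 to 1.32 in PBS 4, where each gene had 4 reads.

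Of the 10 genes, 1 had groups that did not overlap, S100a9, against 2.13% of all genes tested (1.25% higher and 0.873% lower in ammonium acetate). The genes were chosen on this contrast, so nothing is read from that share. The same holds for the sign of the log2 fold change, which was above 0 in 4 of the 10 (S100a1, S100a8, S100a9 and S100a16) and in 43.9% of all genes tested. With each library's trend on gene length removed, S100a9 overlapped between the groups and its log2 fold change was 1.2. Short genes had higher values in ammonium acetate 6 and 8, where, of 5 bins by length, the median deviation of the shortest genes exceeded that of the longest by 0.39 and 0.38 on the log2 scale, while in ammonium acetate 4 the difference was -0.42. The S100a9 gene model of 519 bases and the S100a8 model of 392 bases are short. Without ammonium acetate 6 and 8 the log2 fold change was 1.36 for S100a9 and 0.70 for S100a8. This leaves out the lowest S100a9 value of the group (1.28 FPKM) together with a high one (3.72). It also leaves out the highest S100a8 value (2.32), so nothing is read from it about gene length. By limma with Benjamini-Hochberg adjustment, 0 of the 11337 genes passed 0.05, which is 0% of those tested. At an unadjusted p under 0.05 there were 972, and voom on the recovered reads called 0 as well, with 924 unadjusted.

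Other neutrophil genes were scarce in both groups. Of 20 listed neutrophil markers, 13 had under 10 reads in every library and 1, Mmp9, reached the expression filter. Some genes of mature or granule-forming neutrophils were at 0 in most libraries, among them Ly6g in 7 of 9, Ngp in 8, Camp in 8, Ltf in 7, Mpo in 8 and Elane in 7. Other listed markers were at 0 in few libraries. Cxcr2 was so in 2, Csf3r, Padi4 and Hdc in 1 each, and Lcn2, Retnlg, Mmp9 and Il1b in 0. Retnlg, a secreted protein of blood neutrophils, measured 0.181 ± 0.144 FPKM in PBS on 1 to 8 reads and 0.520 ± 0.170 in ammonium acetate on 4 to 14 reads, and its groups overlapped. Lcn2, an iron-binding defence protein made by neutrophils and other cells, measured 0.279 ± 0.0871 and 0.585 ± 0.432 FPKM and was highest at 1.29 in ammonium acetate 7. Mmp9, a matrix protease stored in neutrophil granules, measured 0.969 ± 0.978 and 0.550 ± 0.363 FPKM. Its log2 fold change was -0.35 (standard error 0.37). Its PBS mean turned on PBS 7 (2.40 FPKM), and without that library it was 0.490 ± 0.245 (SD, n = 3), below the ammonium acetate mean. The latter still held its own highest library, ammonium acetate 4 (1.04 FPKM), so no direction is read from leaving out PBS 7 alone. The summed FPKM of the 20 markers ran from 0.663 to 3.73 in PBS and from 1.42 to 2.96 in ammonium acetate, and Mmp9 made up 2.40 of the 3.73. Without Mmp9, an alternative chosen after seeing the data, the sum ran from 0.422 to 1.32 in PBS and from 1.15 to 2.76 in ammonium acetate, where libraries 4 and 6 lay below PBS 7. Of the sparse markers, named after their values were seen, the neutrophil surface protein Cd177 had 0 reads over the PBS libraries and 16 over the ammonium acetate libraries. The chemokine receptor Cxcr2 had 8 and 21, and the collagenase Mmp8 0 and 7. Other markers of the list differed less or went the other way. Il1b had 39 and 38 reads, Hdc 67 and 70, Csf3r 35 and 41 and Padi4 20 and 26. Ltf had 3 and 0, Elane 2 and 1, and Camp, Ngp and Fpr1 1 and 0 each. Ly6g had 1 and 2, Fpr2 1 and 3, Trem1 2 and 2, Stfa2l1 1 and 4 and Mpo 0 and 1.

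Blood and monocyte genes had lower means under ammonium acetate. All 5 erythroid genes tested had negative log2 fold changes, and the 6 listed had a summed FPKM of 167 to 221 in PBS and 108 to 164 in ammonium acetate. All 8 macrophage and monocyte genes tested were also on the negative side, with a median of -0.24 beside -0.03 over all genes tested, and none passed the adjusted threshold. This was not particular to blood and monocyte genes. The median was -0.45 for endothelial, -0.36 for fibroblast, -0.34 for Schwann cell, -0.48 for adipocyte and -0.57 for tendon genes. It was -0.001 for muscle fibre genes, of which 6 were above and 6 below 0, from -1.02 for Myh1 to 0.32 for Mylpf. For epidermal genes it was 0.73, and their summed FPKM was 107 in ammonium acetate 5 and 4.14 to 6.24 in the other libraries. In a whole muscle, fewer cells of a type and less RNA per cell cannot be told apart, and the part of neutrophils, blood or monocytes in the S100a8 and S100a9 values was not tested.

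Skin is another known source of S100 transcripts, and ammonium acetate 5 carried skin genes. The summed FPKM of 14 epidermal markers was 107 there and 4.14 to 6.24 in the other 8 libraries, with Krt5, a basal keratin, at 19.3 FPKM. S100a14, an epithelial S100 gene, had 53 reads (1.94 FPKM) in that library, 2 reads in ammonium acetate 7 and none in the other 7. S100a8 was lower in ammonium acetate 5 than in the other 4 libraries of its group, and S100a9 was the third highest of the 5. Without ammonium acetate replicate 5 the log2 fold change was 1.40 for S100a9 and 1.07 for S100a8. S100a8 was then among the 379 of 11331 genes tested whose groups did not overlap. This leaves out the lowest S100a8 library of the group, so nothing is read from it.

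The receptors known for extracellular S100 proteins were not called between the groups. Of the 10 listed receptor and sensor genes 6 were tested, and 0 passed in either direction, with 3 positive and 3 negative log2 fold changes and a median of -0.10. Ager, the receptor for advanced glycation end products, had no reads in 8 of 9 libraries. Tlr4, the innate receptor on which calprotectin is known to act, measured 0.990 ± 0.363 FPKM under PBS and 0.688 ± 0.369 under ammonium acetate. On deviations from the group means over the 9 libraries it had r = 0.81 with S100a9 (rho 0.87, and 0.70 without the 2 farthest libraries) and 0.56 with S100a8, given without a p. The value with S100a9 ranked 142 among 11336 genes, whose median was 0.23. Bsg, a matrix metalloprotease inducer reported to bind S100a9, measured 447 ± 57.2 and 534 ± 114 FPKM, and the scavenger receptor Cd36 118 ± 47.6 and 94.6 ± 37.9. With S100a9 Bsg had r = -0.14, and Cd36 had r = 0.48, which was 0.10 without the 2 farthest libraries.

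S100a1 was high in every library of both groups. Its FPKM was 140, 138, 112 and 126 in PBS 4, 5, 7 and 8 and 88.1, 116, 162, 149 and 161 in ammonium acetate 4 to 8. The ammonium acetate libraries held both the lowest and the highest values, and the PBS libraries lay within their range. The means were 129 ± 12.7 and 135 ± 32.2, with a log2 fold change of 0.04 (standard error 0.17). Over the alternatives it ran from -0.16, without ammonium acetate 6 and 8, to 0.18, without ammonium acetate replicate 4. The order of S100a1 in the ammonium acetate libraries, low in library 4 and high in 6 and 8, was also that of short genes as a whole, whose part in it was not tested, and the S100a1 model has 677 bases.

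The known targets of S100a1 in the fibre deviated the other way. The following correlations r are across the 9 libraries on deviations from the group means of log2(FPKM + 0.5). They are given without a p, as a description of libraries that share depth and gene length effects. S100a1 had r = -0.85 with Ryr1, the calcium release channel (Spearman's rho -0.85, and r = -0.81 without the 2 libraries farthest from the group means of S100a1). It had r = -0.81 with Atp2a1, the calcium pump of fast fibres (rho -0.72, and -0.86 without the 2). Counted from the highest r with S100a1, Ryr1 ranked 10988 and Atp2a1 10806 among 11336 genes, so many other genes had lower values. Ryr1 measured 246 ± 33.5 FPKM in the PBS group and 170 ± 68.7 in the other group, and it had its lowest values in ammonium acetate 6 (130) and 8 (82.0), where S100a1 was highest.

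S100a13, the head-to-head neighbour of S100a1, deviated with it, r = 0.84 (rho 0.72). S100a13, known for the release of the growth factor Fgf1 by a route without a signal peptide, measured 11.6, 12.5, 10.9 and 11.4 FPKM in PBS 4, 5, 7 and 8. In ammonium acetate 4 to 8 it measured 8.79, 9.65, 10.2, 11.8 and 12.1. Its lowest 3 values were all from ammonium acetate and the other 2 lay among the PBS values. The means were 11.6 ± 0.648 and 10.5 ± 1.39 FPKM, with a log2 fold change of -0.15 (standard error 0.11). With the gene length trend removed it was -0.30. S100a13 was then among the 298 of 11337 genes tested whose groups did not overlap. Fgf1 itself measured 9.64 ± 4.24 and 7.04 ± 3.13 FPKM.

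S100a16, a broadly expressed member, measured 44.6, 36.6, 39.0 and 35.8 FPKM in PBS 4, 5, 7 and 8 and 34.2, 44.3, 50.2, 42.5 and 54.9 in ammonium acetate 4 to 8. The highest values, in ammonium acetate 6 and 8, and the lowest, in ammonium acetate 4, were in the same libraries as the highest and lowest short genes. The log2 fold change was 0.20 (standard error 0.13), 0.07 with the gene length trend removed and 0.04 without ammonium acetate 6 and 8. S100a16 deviated with S100a1 (r = 0.80, rho 0.62) and not with the stromal members, with r from -0.34 for S100a11 to -0.08 for S100a10.

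The stromal members S100a4, S100a6, S100a10 and S100a11 varied together from library to library. S100a6, a calcium sensor of fibroblasts and proliferating cells, measured 33.4, 48.4, 30.2 and 49.5 FPKM in PBS 4, 5, 7 and 8 and 30.2, 42.1, 37.5, 46.3 and 31.4 in ammonium acetate 4 to 8. S100a10, the partner of annexin A2, measured 24.0, 29.6, 19.95 and 35.9 in PBS and 21.2, 27.0, 24.1, 33.7 and 25.6 in ammonium acetate, in the same order of libraries. For both genes PBS 5, PBS 8 and ammonium acetate 7 were the 3 highest libraries, and the groups overlapped throughout. S100a11, the partner of annexin A1, ran from 22.1 to 32.9 FPKM in PBS and from 21.6 to 29.0 in ammonium acetate. S100a4, which binds non-muscle myosin and marks motile fibroblasts, ran from 5.38 to 13.8 and from 6.34 to 10.8 FPKM, and GENCODE M21 places the gene Gm42674 on the same strand across it, so its reads are uncertain. The 6 correlations r among these 4 genes were between 0.73 (S100a4 with S100a6) and 0.91 (S100a6 with S100a10).

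Their log2 fold changes were -0.13 for S100a4 (standard error 0.27), -0.09 for S100a6 (0.18), -0.04 for S100a10 (0.17) and -0.14 for S100a11 (0.14). Only S100a11 and S100a13 of the 10 genes had a negative value under each of the 19 alternatives run. S100a4 ran from -0.36, without PBS replicate 4, to 0.06, without PBS replicate 5, and S100a6 and S100a10 also took both signs. With the gene length trend removed the values were -0.29 for S100a4, -0.24 for S100a6, -0.19 for S100a10 and -0.30 for S100a11.

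**Figure D3:**
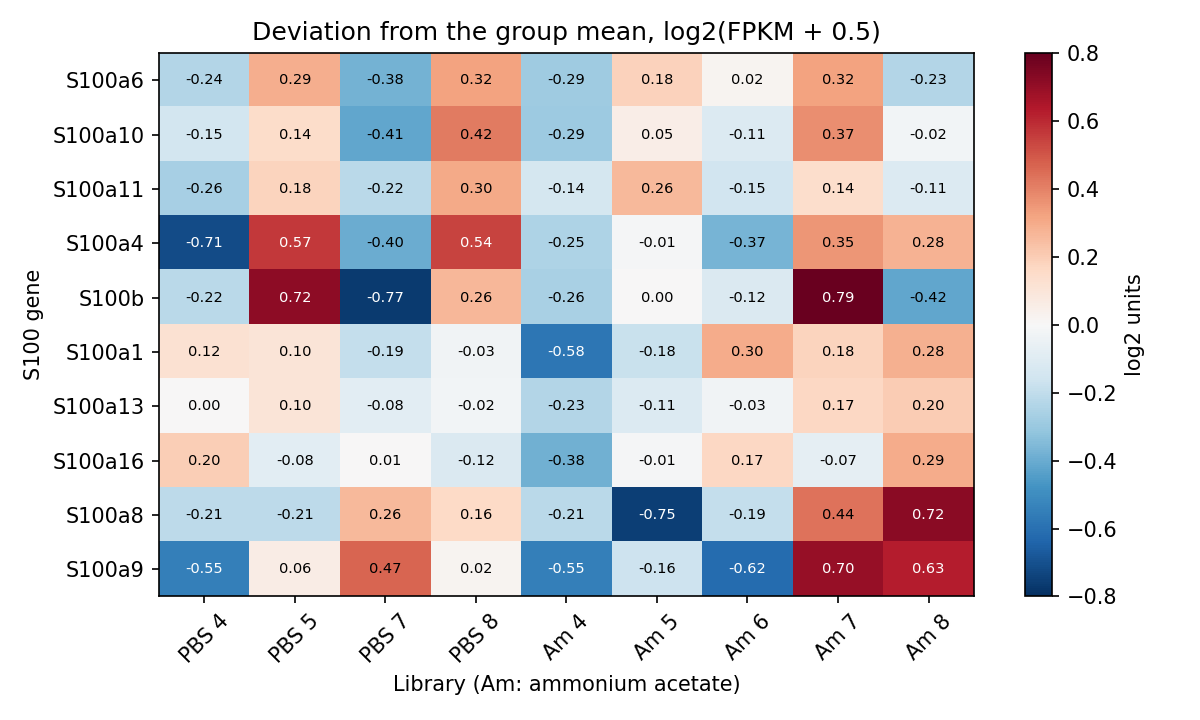
Deviation of each S100 gene (rows) from its group mean in each library (columns; Am, ammonium acetate) in log2(FPKM + 0.5), with the value in each cell and red for higher. S100a6, S100a10, S100a11, S100a4 and S100b are above their group mean in PBS 5, PBS 8 and ammonium acetate 7, while S100a1, S100a13 and S100a16 are lowest in ammonium acetate 4.

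Of the 3 annexins set against a single S100 gene, Anxa2 and Anxa1 deviated with it and Anxa11 did not. The other listed annexins, Anxa5 and Anxa6, were not set against a single member. Anxa2, which forms a tetramer with S100a10 at membranes, had r = 0.92 with it (rho 0.93, and r = 0.86 without the 2 farthest libraries), which ranked 20 among 11336 genes. Anxa2 measured 15.3, 18.5, 13.5 and 21.3 FPKM in PBS 4, 5, 7 and 8 and 14.5, 18.8, 13.1, 20.4 and 15.6 in ammonium acetate 4 to 8. Anxa1 had r = 0.84 with S100a11 (rho 0.82, and 0.81 without the 2). Anxa11, a partner of S100a6, had r = -0.15 with it (rho -0.15). Ahnak, a scaffold that binds S100a10, had r = 0.33 with it, Myh9, the myosin target of S100a4, r = 0.03, and Cacybp, the calcyclin-binding protein named for S100a6, r = 0.17. Sugt1, also set against S100a6, had r = -0.07 with it. Capzb had r = -0.80 with S100b, and Fgf1 had r = 0.48 with S100a13. Of the 18 listed partners 16 were tested, and 0 passed the adjusted threshold in either direction. Of these, 5 had positive and 11 negative log2 fold changes, with a median of -0.10 beside -0.03 over all genes.

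Fibroblast genes deviated with the stromal members from library to library. The 12 fibroblast and fibro-adipogenic progenitor markers had a median r of 0.73 with S100a4, 0.64 with S100a6, 0.58 with S100a10 and 0.76 with S100a11. The medians over all 11336 other genes were 0.33, 0.17, 0.22 and 0.27. Endothelial medians were 0.18, 0.26, 0.30 and 0.34 and adipocyte medians 0.21, 0.16, -0.002 and 0.37 for the same 4 genes. Schwann cell medians were 0.64, 0.87, 0.81 and 0.77 and tendon medians 0.73, 0.77, 0.68 and 0.73. The likeness was thus not particular to fibroblast genes. For S100a16 the fibroblast marker median was -0.64, and for S100a1 -0.24. The summed FPKM of the 12 markers was 478 in PBS 4, 748 in PBS 7, 1113 in PBS 8 and 1200 in PBS 5, and 512 to 777 in ammonium acetate. All 12 had negative log2 fold changes, with a median of -0.36 and none past the threshold, against -0.14 to -0.04 for the 4 S100 genes.

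S100b followed the genes of myelinating Schwann cells. Its FPKM was 1.27, 2.89, 0.71 and 1.97 in PBS 4, 5, 7 and 8 and 0.972, 1.27, 1.13, 2.55 and 0.822 in ammonium acetate 4 to 8, on 43 to 128 reads. PBS 5, ammonium acetate 7 and PBS 8 were highest and the groups overlapped. Means were 1.71 ± 0.939 and 1.35 ± 0.691, with a log2 fold change of -0.22 (standard error 0.30). That value turned on single libraries, at 0.02 without PBS replicate 5, -0.48 without PBS replicate 7 and -0.42 without ammonium acetate replicate 7. Pmp22, a membrane protein of compact myelin, measured 31.9, 60.1, 22.2 and 47.6 FPKM in PBS and 19.0, 37.4, 23.8, 62.0 and 18.6 in ammonium acetate. The same 3 libraries were highest for Pmp22.

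The 7 Schwann cell markers tested had r with S100b from 0.79 to 0.95, with a median of 0.93 (rho 0.90, and r = 0.89 without ammonium acetate 7 and PBS 7). The median over all genes was 0.20. For the 7 markers of adipocytes, another known source of S100b, the median was 0.13, and 0.41 without the same 2 libraries, when that over all genes was 0.15. The Schwann median was also high with S100a6, at 0.87, and with S100a10, at 0.81, while the 6 tendon markers had 0.82 with S100b. PBS 5, PBS 8 and ammonium acetate 7 were thus rich in several kinds of non-fibre transcripts, but not in these alone. The fibre myosin gene Myh1 measured 670, 797 and 555 FPKM there and 166 to 554 in the other libraries. Of the 12 fibre markers 3 had r above 0 with S100b, up to 0.75, and the median was -0.44. S100b overlaps the antisense gene Dip2a by 1731 bases, and without a stated strand setting reads in that stretch cannot be told apart.

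**Figure D4:**
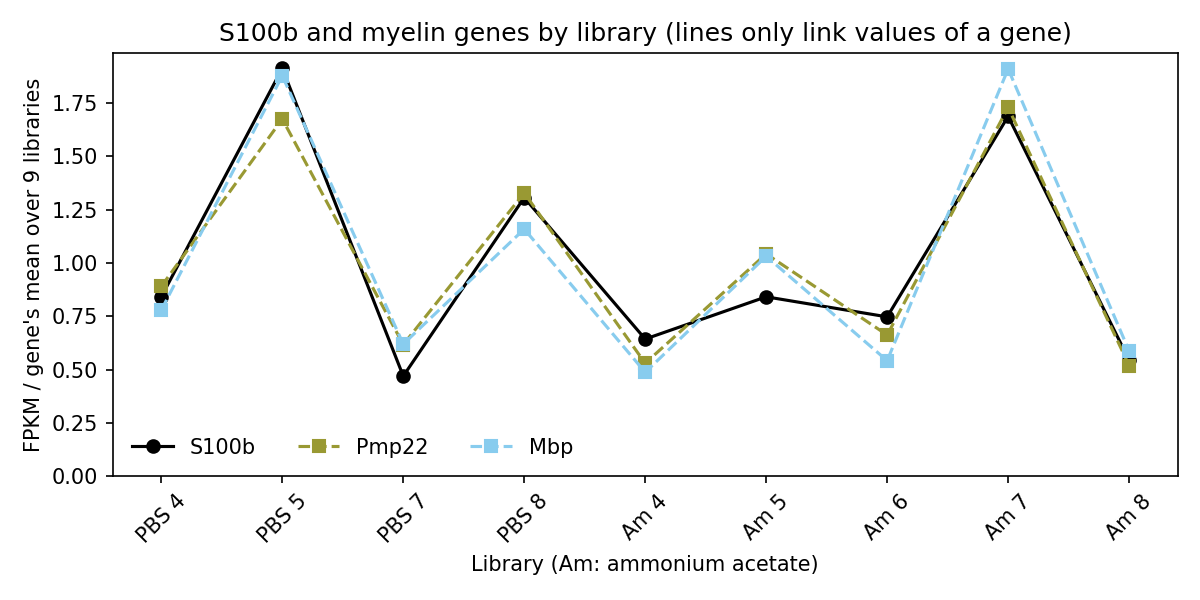
FPKM of S100b (black) and of the myelin genes Pmp22 and Mbp (dashed) in each library, divided by the gene's own mean over the 9 libraries; the lines only join the values of a gene. All 3 genes are highest in PBS 5 and ammonium acetate 7, where S100b reaches 2.89 and 2.55 FPKM.

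By the ranking of single genes on the same deviations, the 3 genes most like each of 6 members were mostly of other functions. For S100a9 they were Sh2b2, Slbp and Pex13 (r = 0.95 for each), for S100a8 Mlst8, Mphosph10 and Igfals (0.94 to 0.96), and for S100a4 Kctd2, Acat1 and Htra2 (0.96 to 0.98). For S100a6 they were Atp2a2, Cldn19 and Fer1l6 (0.95 to 0.97), for S100a1 Psmg2, Mvb12a and Uqcrq (0.98 to 0.99), and for S100b Dusp18, Rnf219 and Dkk2 (0.96 to 0.97). With 9 libraries and 11336 candidates, values this near 1 are a ranking and no more. S100a8 and S100a9 had r = 0.75 with each other (rho 0.73).

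The remaining S100 genes of the table were nearly silent in this muscle. S100a2 and S100z had no reads in any library. S100a3 (0 to 4 reads), S100a5 (0 to 8), S100a7a (0 to 7) and S100g (0 to 2) were at most at 0.729 FPKM. Where a library had no reads of a gene, the exact 95% Poisson interval reached up to 3.69 reads. S100pbp, which encodes a binding protein rather than an S100 protein, measured 0.851 ± 0.120 FPKM under PBS and 0.866 ± 0.229 under ammonium acetate.

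**Figure D5:**
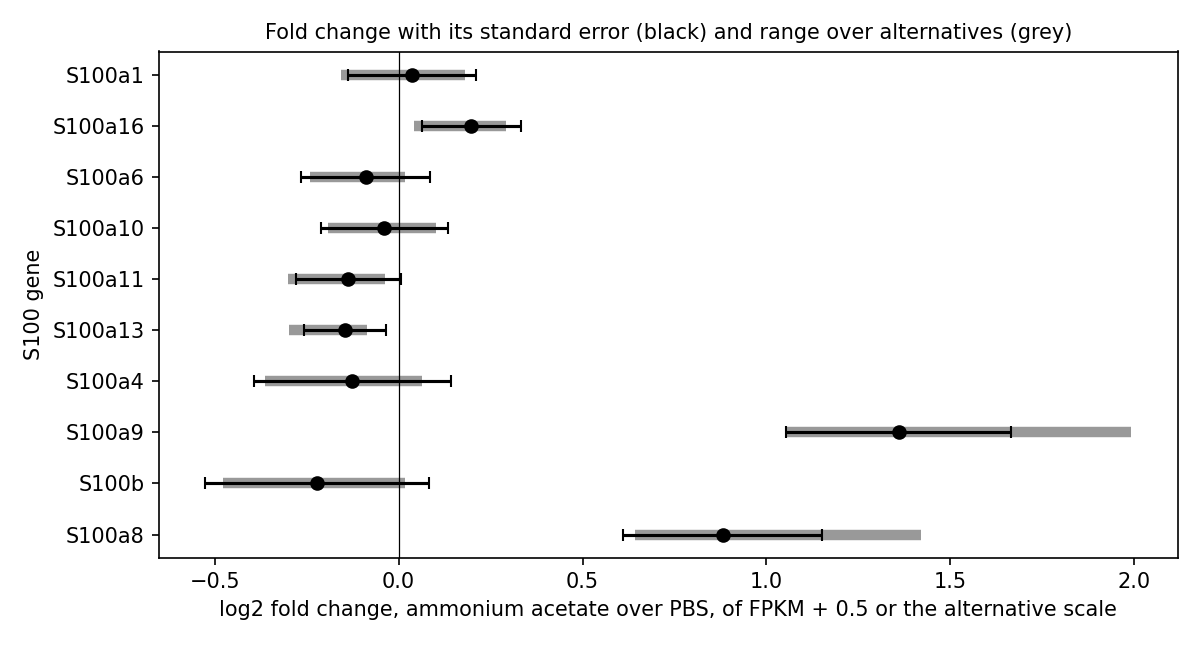
Log2 fold change of each S100 gene, ammonium acetate over PBS, with its standard error (black, on log2(FPKM + 0.5)) and the range over 19 alternatives (grey; 18 where the gene missed the filter of 1 alternative). S100a9 (1.05 to 1.99) and S100a8 (0.64 to 1.42) are higher in each, while S100a1, S100a4, S100a6, S100a10 and S100b take both signs.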

How the data were processed

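RNA sequencing of 9 gastrocnemius libraries was used, 4 PBS and 5 ammonium acetate, grouped by their titles. The authors deposited 1 table of FPKM values with gene lengths and mm10 coordinates. Tools listed in the submitters' processing notes are STAR, HTSeq, TopHat and DESeq2, with no role or version. The sources used here do not give the strand setting. FPKM times length gave whole reads within 0.05 read for all values above 0, and these recovered reads give the depth. No 2 libraries were identical.

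Genes with a mean of at least 0.5 FPKM (11337) were tested with limma 3.58.1 in R 4.3.3 on log2(FPKM + 0.5) with a mean-variance trend, two-sided, with Benjamini-Hochberg adjustment at 0.05. The method was tested on simulated data. Poisson and binomial intervals cover counting error only. The length trend was a lowess (span 0.3) of each library on log2 gene length. Promoters are RefSeq windows (GRCm38.p6). Gene overlaps came from GENCODE M21. Python 3.11.15, numpy 2.4.6, pandas 2.3.3, scipy 1.17.1 and matplotlib 3.10.9 were used.

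The 10 genes, the marker and partner lists and the tests were chosen with earlier results of these data known. The genes named besides them were the listed markers, partners and receptors, other S100 genes, and the 3 named genes of highest r for 6 members, with predicted genes skipped.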

Additional observations from a re-analysis of the deposited data

Results flagged for a closer look

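Of 73 combinations of a gene and a group, over 39 genes named here or screened beside them, 11 had a library outlying from the rest of its group by Dixon's criterion, which chance gives in about 1 of 20. Ammonium acetate 5 stood apart in 3 genes of skin, with S100a14 at 1.94 FPKM, Krt5 at 19.3 and Krt10 at 16.1. S100b in ammonium acetate 7 measured 2.55 FPKM, and the next library of its group 1.27. S100pbp in PBS 4 measured 0.672 FPKM, below the nearest value of 0.897. The other flags rested on 1 to 7 reads: S100a3 at 0.219 FPKM in ammonium acetate 6, S100a7a at 0.159 in PBS 4 and 0.279 in ammonium acetate 7, S100g at 0.0622 in PBS 8 and 0.123 in ammonium acetate 7, and Krt5 at 0.0109 in PBS 7. S100a8 and S100a9 had no library flagged in either group.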

How the results depend on the processing

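Under each of the 19 alternatives run, 0 genes passed the adjusted threshold, with 256 to 1730 at an unadjusted p under 0.05. Genes whose groups did not overlap numbered 241, and 409 without ammonium acetate 6 and 8 together; fewer libraries overlap less often, and with 1 library left out the count ran from 267 to 966. The fold changes of S100a8 and S100a9 stayed positive in the 18 alternatives that kept them. They moved by more than 1 SD between libraries only with limma's voom (1.42 and 1.99), which adds 0.5 to the reads and not to the FPKM. The fold change of S100a13 moved to -0.30 with the length trend removed. Same-numbered libraries of the groups did not deviate together (r from -0.34 to -0.07), and no PBS library correlated best with its own number. These deviations also carry each library's trend on gene length, so they cannot decide whether the replicate numbers pair the samples. With the replicate number as a block, over libraries 4, 5, 7 and 8, 0 genes passed and 259 did so unadjusted; the log2 fold change was 1.51 for S100a9 and 0.93 for S100a8. A planned count model of the recovered reads was not run, because the deposited values are not counts. Depth limits S100a8 and S100a9 most, at 3 to 69 reads a library.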
